A study of Mus musculus with 4 samples.

Results

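Mammalian liver remodels fatty acids by adding double bonds and by lengthening the chain, and the data below follow the 9 mouse genes for the enzymes of these steps: the desaturases *Scd1*, *Scd2*, *Fads1* and *Fads2* and the elongases *Elovl1*, *Elovl2*, *Elovl3*, *Elovl5* and *Elovl6*. They were taken by symbol from the gene table of 35739 genes, and all 9 were found. Of the 4 liver RNA-seq libraries, 2 came from WT mice (WT 2 and WT 3) and 2 from *Usp21* KO mice (KO 1 and KO 3). The labels number the libraries and do not state whether each came from 1 mouse. The KO is constitutive: a floxed allele of *Usp21*, a ubiquitin protease gene, was made in 129/Sv embryonic stem cells, exons 3 and 4 were then removed by breeding to Cre mice, and the WT animals were littermates on the same mixed B6 and 129/Sv background. All mice were 10 to 11 weeks old and ate a normal diet, and neither their sex nor the time of day at collection is given in the sources used here. The p-values rest on these 4 libraries only, and those of the main genotype comparison also borrow from the variance of other genes.

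Stearoyl-CoA desaturases place the first double bond into saturated fatty acids and so supply oleic and palmitoleic acid. The FADS enzymes desaturate the essential fatty acids that come with the diet, and alternate with *Elovl5* and *Elovl2* on the way to arachidonic and docosahexaenoic acid. *Elovl6* lengthens palmitic acid, the product of fatty acid synthase, while *Elovl1* and *Elovl3* lengthen longer saturated and monounsaturated chains. In liver these genes are known targets of SREBP-1c, ChREBP, LXR and PPARα, which link them to feeding and insulin.

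Levels are given in TPM (transcripts scaled to a common library total, a level corrected for transcript length and estimated by the authors with salmon). *Usp21* itself was at 4.07 and 6.29 TPM in WT 2 and WT 3 and at 1.64 and 2.93 TPM in KO 1 and KO 3, so each KO library was lower than each WT library, and neither KO library was at 0. TPM does not record depth. A second deposited table of CPM (reads scaled to library size) gave back whole reads, between 102898 and 148164 per library. These are only the reads counted to genes there, and do not give the depth behind the TPM values. There 7 of the 9 genes were listed at 0 in every library. Only *Fads1* (1 and 2 reads in WT, 3 and 0 in KO) and *Scd1* (0 and 1 in WT, 1 and 0 in KO) were above 0 there, all within the 3 reads that a count of 0 allows by counting error. Among 682 abundant genes, those at 100 TPM or more in each library, 428 were also at 0 there throughout. The TPM and CPM values thus disagree at abundant genes, for a reason that was not tested, and the results therefore rest on TPM. The 10 hepatocyte markers examined all passed the filter on low values, and together reached 75382 and 59356 TPM in the WT libraries, against 62101 and 52525 in KO 1 and KO 3.

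The 9 genes lie on 5 chromosomes in the GENCODE M21 annotation of GRCm38, and none is on chromosome 1, where *Usp21* lies. *Elovl6* is on chromosome 3 (129532355 to 129638495), *Elovl1* on chromosome 4 (118428093 to 118432953) and *Elovl5* on chromosome 9 (77917364 to 77984519), all on the forward strand. *Elovl2* is on the reverse strand of chromosome 13 (41182381 to 41220405). The remaining 5 share chromosome 19: *Fads2* (10062765 to 10101746, reverse), *Fads1* (10182888 to 10196877, forward), *Scd2* (44293674 to 44306864, forward), *Scd1* (44394455 to 44407879, reverse) and *Elovl3* (46131897 to 46135694, forward). *Fads1* and *Fads2* are 81.1 kb apart, *Scd1* and *Scd2* 87.6 kb, and *Scd1* and *Elovl3* 1724 kb.

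Promoter windows from RefSeq (GRCm38.p6, from 250 bases before to 50 after the start site) were matched for 5 of the 9 genes: *Elovl1*, *Elovl2*, *Elovl5*, *Elovl6* and *Fads2*. Those of *Elovl2*, *Elovl5* and *Elovl6* are shown because *Elovl2* and *Elovl5* were higher in each KO library than in each WT library and *Elovl6* was not. They lie at chr13:41220354-41220653 (reverse strand), chr9:77917115-77917414 (forward) and chr3:129532136-129532435 (forward), and are written 5′ to 3′ on the strand of the gene. Capitals mark the motif matches that are described after the sequences.
Elovl2: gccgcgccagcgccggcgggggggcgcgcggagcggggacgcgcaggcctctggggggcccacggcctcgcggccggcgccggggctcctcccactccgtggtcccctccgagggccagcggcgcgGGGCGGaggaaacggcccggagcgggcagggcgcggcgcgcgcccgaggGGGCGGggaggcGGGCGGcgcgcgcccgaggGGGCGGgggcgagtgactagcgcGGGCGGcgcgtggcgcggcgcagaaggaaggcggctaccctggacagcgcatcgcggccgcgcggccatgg
Elovl5: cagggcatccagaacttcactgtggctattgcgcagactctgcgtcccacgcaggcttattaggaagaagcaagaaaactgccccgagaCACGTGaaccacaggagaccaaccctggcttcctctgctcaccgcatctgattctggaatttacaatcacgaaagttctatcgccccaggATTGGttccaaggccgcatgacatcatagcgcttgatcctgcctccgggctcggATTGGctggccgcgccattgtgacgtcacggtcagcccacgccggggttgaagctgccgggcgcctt
Elovl6: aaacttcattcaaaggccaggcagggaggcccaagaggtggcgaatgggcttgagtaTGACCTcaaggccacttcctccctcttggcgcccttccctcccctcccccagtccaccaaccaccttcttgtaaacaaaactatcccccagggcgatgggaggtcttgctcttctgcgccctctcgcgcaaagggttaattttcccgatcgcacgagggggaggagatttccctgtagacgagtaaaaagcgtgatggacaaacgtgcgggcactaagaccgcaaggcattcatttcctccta
A set of 6 motifs was searched on both strands, and no marked matches overlap in these 3 windows. The GC box, GGGCGG, occurs 5 times before the *Elovl2* start site shown, at -124, -75, -63, -44 and -21, and is present in 35.7% of the 32851 promoter windows of all genes. It is in 4 of the 7 windows of the 5 genes, those of *Elovl1* and *Fads2* included. A second *Elovl2* window (chr13:41220113-41220412, reverse strand), not shown, holds none. The *Elovl5* window holds an E-box, CACGTG, at -161, found in 7.15% of all windows, and the CCAAT box as ATTGG on the reverse strand at -71 and -17, found in 37.4%. The nuclear receptor half-site AGGTCA is in the *Elovl6* window on the reverse strand (TGACCT at -193) and in 16.3% of all windows. Neither the sterol response element core CACCCCAC, present in 2.87% of all windows, nor the D-box letters TTATGTAA or TTACGTAA, present in 1.06%, occur in any of the 7 windows of the 5 genes. The *Elovl2* window is 84.7% G and C, that of *Elovl5* 57.7% and that of *Elovl6* 55.7%, beside a median of 52.7% over all windows.

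*Scd1* was the most abundant of the 9 transcripts in each of the 4 libraries, with a mean of 1029 TPM ± 447 (SD, n = 4). *Elovl3*, *Elovl2*, *Fads1*, *Fads2* and *Elovl5* followed with means of 140, 116, 101, 101 and 98.9 TPM over the 4 libraries. The ranges of these 5 genes overlap, so the libraries do not order them, and *Elovl3* took the second place in WT 2 and in both KO libraries but the eighth in WT 3. *Elovl1* (24.2 TPM) and *Elovl6* (8.18 TPM) came next, and their ranges did not overlap each other. Both overlapped the wide range of *Elovl3* (10.8 to 253 TPM). *Scd2*, the isoform best known from brain and developing tissue, averaged 0.613 TPM and stayed under the mean of 1 TPM needed for the test.

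**Figure D1:**
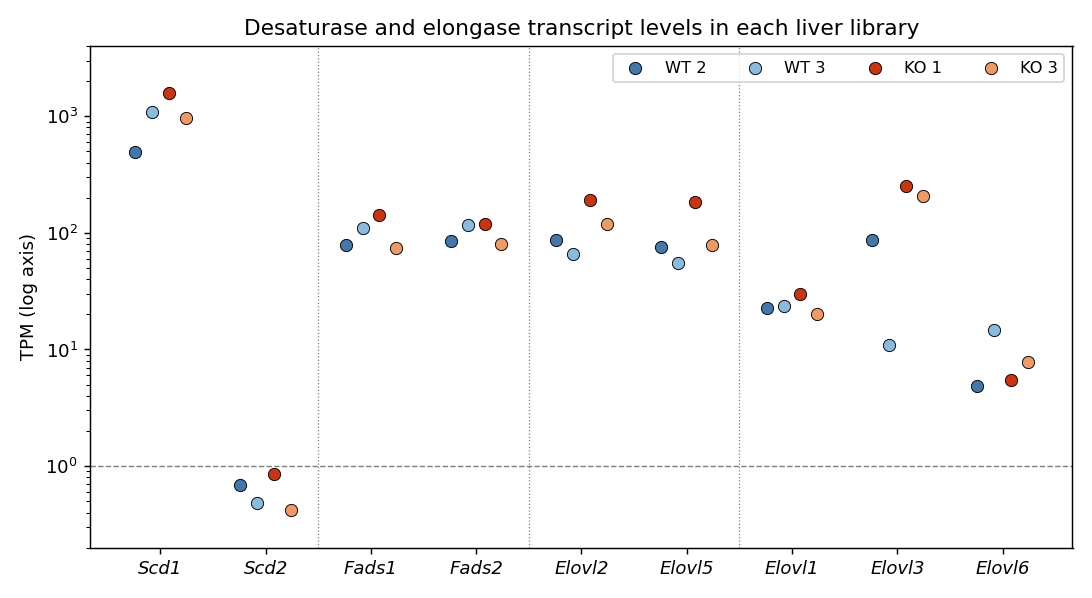
Level of each gene in TPM on a log axis, 1 point per library, with the 2 WT libraries in blue and the 2 KO libraries in red and orange; dotted lines separate stearoyl-CoA desaturases, FADS desaturases, elongases of polyunsaturated chains and the other elongases, and the dashed line is 1 TPM. *Elovl2*, *Elovl3* and *Elovl5* have the KO points above the WT points, and WT 3 is the lowest point of *Elovl3* (10.8 TPM) and the highest of *Elovl6* (14.6 TPM).

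The genotypes were compared to ask whether loss of *Usp21* goes with another level of these lipid enzymes. Of the 8 genes tested, 6 had a higher mean in KO, where 66.7% of all 9581 tested genes did. Each KO library exceeded each WT library for 3 of the 8 genes (*Elovl2*, *Elovl3* and *Elovl5*), beside 34.4% of all tested genes, and each lay lower for 0 of the 8, beside 10.9%. The counts of higher and of separated genes are thus near those of the whole table. An unadjusted p under 0.05 (limma on log2(TPM + 1), two-sided) was reached by 2 of the 8, *Elovl2* and *Elovl3*, both higher in KO, compared with 8.45% of all genes higher and 2.04% lower. None of the 8 passed the Benjamini-Hochberg adjusted threshold of 0.05 in limma, which 8 genes of the table (0.0835%) did. When the fit did not borrow from the variance of other genes, 0 of the 8 fell under the unadjusted 0.05, where 806 of the 9581 tested genes did. Differences given as log2 below are KO minus WT means of log2(TPM + 1), and their median was 0.45 for the 8 genes and 0.15 for all tested genes.

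**Figure D2:**
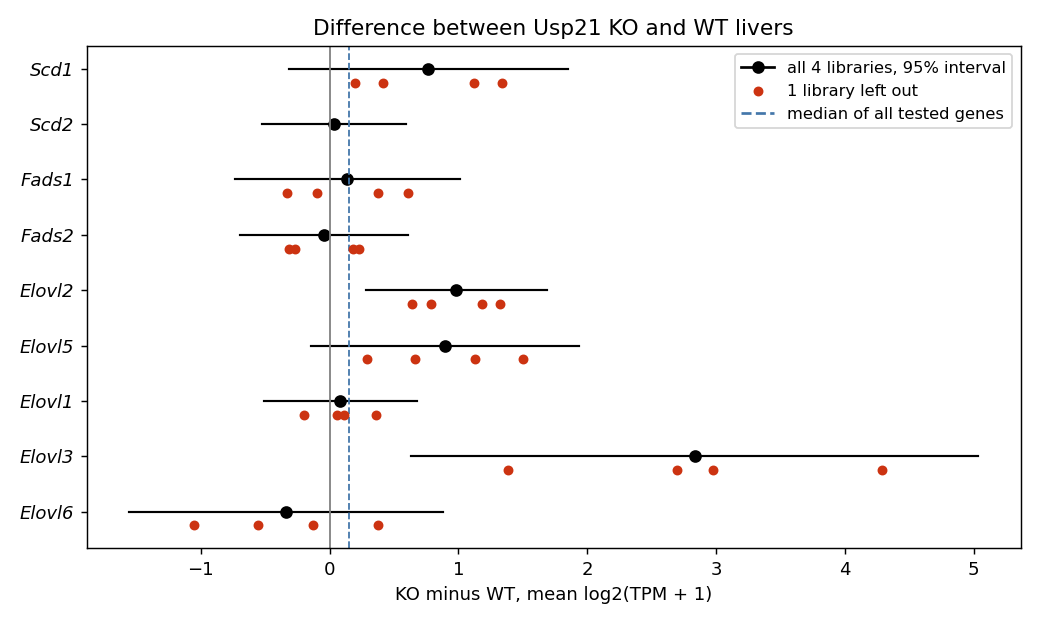
Difference between KO and WT means of log2(TPM + 1) for the 9 genes, with the 95% interval from limma in black, the same difference with 1 library left out in red (not computed for *Scd2*), and the median of all tested genes as a dashed line at 0.15. The intervals of *Elovl2* (0.28 to 1.69) and *Elovl3* (0.63 to 5.03) lie above 0, and the red points of *Elovl1*, *Elovl6*, *Fads1* and *Fads2* fall on both sides of 0.

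Among the desaturases, the level of *Scd1*, the main stearoyl-CoA desaturase of adult liver, was 489 TPM in WT 2, 1080 in WT 3, 1579 in KO 1 and 967 in KO 3. The genotypes overlapped, because WT 3 was above KO 3, and WT 2 was the lowest library. The difference was 0.76 on the log2 scale (SE 0.44, 95% interval -0.32 to 1.85, limma adjusted p = 0.540), smaller than the distance of 1.14 between the 2 WT libraries. Without WT 2 it was 0.19.

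*Scd2* was at 0.694 and 0.482 TPM in WT 2 and WT 3 and at 0.852 and 0.423 TPM in KO 1 and KO 3. These values also overlapped, and in a fit without the filter on low values its difference was 0.035 (SE 0.22, limma adjusted p = 0.967). Within a library *Scd1* exceeded *Scd2* 705-fold and 2241-fold in WT and 1853-fold and 2285-fold in KO. Of the 31-base stretches of the *Scd1* transcripts 8.14% also occur in other genes, and of those of *Scd2* 6.81%. For both genes *Scd3* held the most of these, and salmon listed *Scd3* at 0 in all 4 libraries.

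*Fads1* and *Fads2*, neighbours that act in turn on the same polyunsaturated chains, overlapped between the genotypes. *Fads1* was at 78.7 TPM in WT 2, 110 in WT 3, 143 in KO 1 and 73.9 in KO 3, with KO values on both sides of the WT values. Its difference was 0.14 on the log2 scale (SE 0.35, interval -0.73 to 1.01, limma adjusted p = 0.892), and turned to -0.10 without WT 2 and to -0.33 without KO 1.

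*Fads2* was at 85.9 TPM in WT 2, 118 in WT 3, 118 in KO 1 and 80.5 in KO 3. The difference of -0.044 (SE 0.26, interval -0.69 to 0.61, limma adjusted p = 0.959) became 0.18 without WT 3 and 0.23 without KO 3. The 4 libraries stood in the same order at both genes, with KO 1 highest and KO 3 lowest. The ratio of *Fads2* to *Fads1* was 1.09 and 1.07 in WT and 0.828 and 1.09 in KO, a log2 difference of -0.18 (two-sided exact permutation test, p = 0.667, where 0.333 is the smallest p that 2 against 2 allows).

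Of the elongases of polyunsaturated chains, *Elovl2*, which makes the very long precursors of docosahexaenoic acid, was at 87.1 TPM in WT 2, 65.8 in WT 3, 191 in KO 1 and 119 in KO 3. The genotypes did not overlap, and the mean of the KO libraries was 2.03 times that of the WT libraries. On the log2 scale the difference was 0.98 (SE 0.28, interval 0.28 to 1.69, unadjusted p = 0.0146, limma adjusted p = 0.464), and it ranged from 0.64 without KO 1 to 1.33 without KO 3.

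*Elovl5*, which acts one step earlier on the same chains and on others, was at 76.2 TPM in WT 2, 54.8 in WT 3, 185 in KO 1 and 79.4 in KO 3. KO 1 stood apart, while KO 3 was barely above WT 2, and scaling the libraries by their upper quartile put KO 3 (77.5) under WT 2 (79.6). The difference was 0.90 (SE 0.42, interval -0.14 to 1.94, limma adjusted p = 0.496) and fell to 0.29 without KO 1. The ratio of *Elovl5* to *Elovl2* was 0.875 and 0.832 in WT and 0.969 and 0.669 in KO, and this log2 difference of -0.084 had an exact permutation p of 1. The 2 genes thus kept about the same ratio in WT 2 and WT 3, and the KO libraries lay on either side of it.

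Among the elongases of saturated and monounsaturated chains, *Elovl3* had the greatest difference of the 9 genes. *Elovl3*, known in mouse liver for higher expression in males and a daily rhythm, was at 87.5 TPM in WT 2, 10.8 in WT 3, 253 in KO 1 and 208 in KO 3. Each KO library was higher than each WT library and close to the other, whereas the WT libraries were 2.90 apart on the log2 scale. A WT difference of that size or more was seen in 40 of the tested genes (0.417%). The difference between genotypes was 2.83 on the log2 scale (SE 0.88, interval 0.63 to 5.03, unadjusted p = 0.0203, limma adjusted p = 0.464). Counting only genes higher in KO, 14 (0.146% of the tested genes) equalled or exceeded it, *Elovl3* included. The *Elovl3* difference was 1.38 without WT 3 and 4.29 without WT 2. Its size thus rests on which WT library is used, and both KO libraries were higher than either.

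*Elovl1*, an elongase expressed in most tissues, was at 22.8 TPM in WT 2, 23.7 in WT 3, 30.2 in KO 1 and 20.2 in KO 3. The KO libraries lay on both sides of the WT libraries, which were nearly alike. Its difference of 0.084 (SE 0.24, interval -0.51 to 0.68, limma adjusted p = 0.906) became -0.19 without KO 1 and -0.010 with upper quartile scaling.

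*Elovl6* was at 4.83 TPM in WT 2, 14.6 in WT 3, 5.51 in KO 1 and 7.75 in KO 3. WT 3 was the high library, and the KO libraries lay between the WT libraries. The difference was -0.34 (SE 0.49, interval -1.55 to 0.88, limma adjusted p = 0.807), and 0.37 without WT 3. *Elovl6* was the only one of the 8 tested genes with KO 3 above KO 1. Of its 31-base stretches 6.41% also occur elsewhere, mostly in *Gm11295*.

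*Elovl6* and *Scd1* act in succession on palmitic acid and its products, and both are known SREBP-1c targets. The ratio of *Elovl6* to *Scd1* was 0.00986 and 0.0136 in WT 2 and WT 3 and 0.00349 and 0.00801 in KO 1 and KO 3. Both KO ratios were lower than both WT ratios, by 1.13 on the log2 scale on average (range -1.73 to -0.53 with 1 library left out), and the exact permutation p of 0.333 is the smallest that 4 libraries can give. No such separation was present in the level of either gene alone.

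The libraries of 1 genotype differed from each other at several of these genes. The WT libraries were at least 2-fold apart on the log2(TPM + 1) scale at *Scd1*, *Elovl3* and *Elovl6*, 3 of the 8 tested genes, compared with 485 of all tested genes (5.06%). They did not differ in 1 direction, since WT 3 was higher for *Scd1* and *Elovl6* and lower for *Elovl3*. The KO libraries were 2-fold apart at *Elovl5* alone, compared with 6.57% of all genes. KO 1 was above KO 3 at 7 of the 8 genes, compared with 64.6% of all tested genes.

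**Figure D3:**
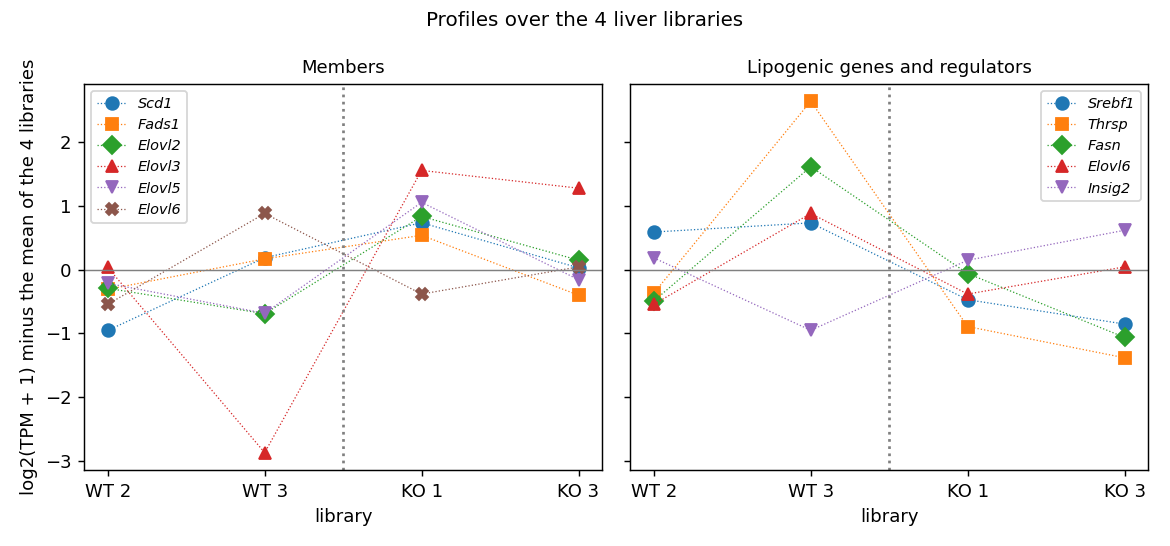
Profiles over the 4 libraries as log2(TPM + 1) minus the mean of the 4, 1 symbol per gene, for 6 of the 9 genes (left) and for *Elovl6* beside lipogenic genes and regulators (right); the dotted lines only join the points of a gene. *Elovl3* is low in WT 3, where *Elovl6*, *Thrsp* and *Fasn* are high, and *Srebf1* is lower in both KO libraries than in either WT library.

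The levels were set beside the length of the longest annotated transcript, because the separation of the genotypes moved with it over the whole table. With the tested genes in 4 length classes of equal size, each KO library exceeded each WT library for 20.8% of the genes in the shortest class (129 to 1997 bp) and for 50.8% in the longest (4544 to 40378 bp). The 3 separated genes are not among the longest. *Elovl3* (1881 bp) falls in the shortest class, *Elovl5* (2782 bp) in the second with 29.4%, and *Elovl2* (3840 bp) in the third with 36.5%. *Scd1* (4832 bp) and *Elovl6* (5951 bp) are in the longest class and overlapped between the genotypes. So did *Elovl1* (1811 bp) in the shortest class and *Fads1* (3460 bp) and *Fads2* (3150 bp) in the third. The part of transcript length in these differences was not tested.

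**Figure D4:**
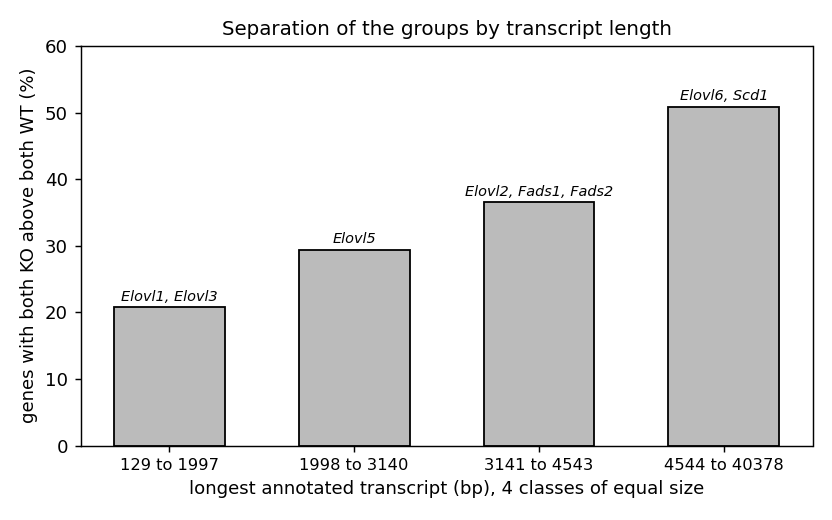
Percentage of tested genes at which each KO library exceeded each WT library, in 4 classes by length of the longest annotated transcript in bp; the 8 tested genes are named above the bar of their class. The percentage goes from 20.8 in the shortest to 50.8 in the longest class, and *Elovl3* is in the shortest.

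For the enzymes that work with the desaturases and elongases, differences lay between -0.47 (*Mboat7*) and 0.45 (*Acsl4*). The 5 tested partners of the elongation cycle (*Hsd17b12*, *Tecr*, *Hacd1*, *Hacd2* and *Hacd3*), which reduce and dehydrate the lengthened chain, were all higher by mean in KO with a median log2 difference of 0.079, under the 0.15 of all tested genes. The cytochrome b5 genes and their reductases, which pass electrons to the desaturases, were higher for 1 and lower for 3 of 4 (median -0.060). Of 4 tested acyl-CoA synthetases 3 were higher and 1 lower (median 0.24), and the 4 tested acyltransferases that place polyunsaturated chains into phospholipids were all lower (median -0.13). None of these genes reached an unadjusted p of 0.05 in limma. Of the other family genes, *Elovl4*, *Scd3* and *Scd4* were listed at 0 in all libraries, *Elovl7* and *Fads3* were under the filter, and *Fads6* differed by -0.10.

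Genes of fatty acid synthesis and malonyl-CoA supply, the step before elongation, were higher in KO for 2 and lower for 7 of 9 (median -0.34, with *Elovl6* among them), and 0 of 9 reached an unadjusted p of 0.05. WT 3 weighed on this list: its median was 0.22 without that library, and 0.033 without KO 3. *Thrsp*, a gene known for its response to carbohydrate and thyroid hormone, was at 75.0 TPM in WT 2, 611 in WT 3, 51.9 in KO 1 and 36.7 in KO 3, and *Fasn*, the fatty acid synthase gene, was at 35.2, 155, 47.8 and 23.4 TPM in the same order. Like *Elovl6*, these 2 genes, which were named after their values were seen, were highest in WT 3, the library in which *Elovl3* was lowest.

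**Figure D5:**
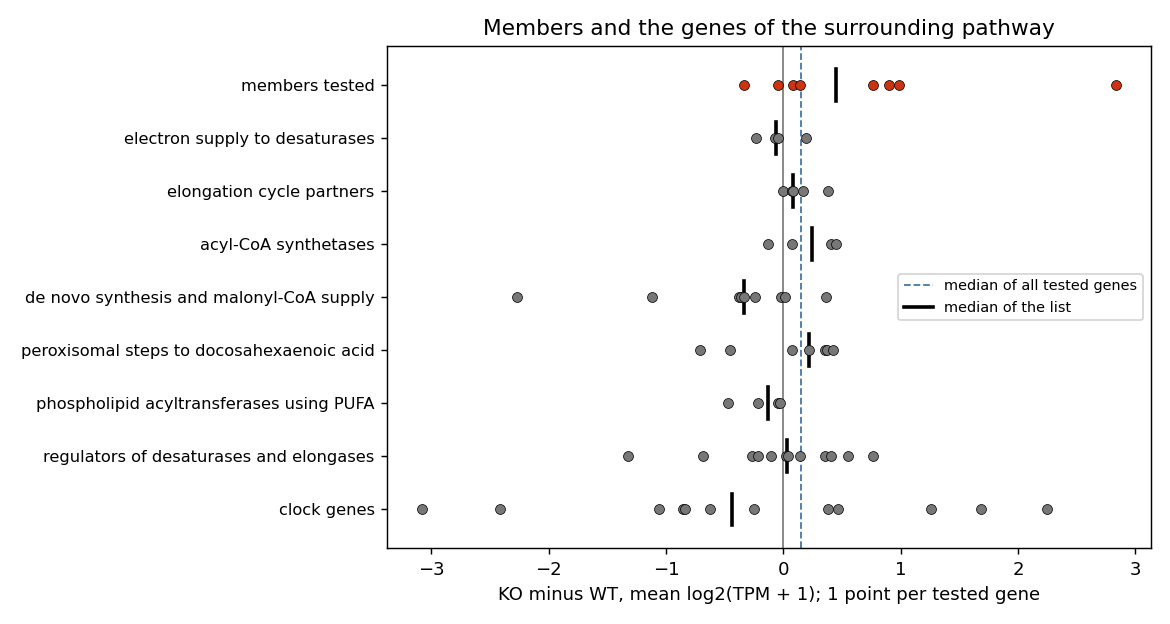
Difference between KO and WT means of log2(TPM + 1), 1 point per tested gene, for the 8 tested genes (red) and 8 lists of surrounding genes (grey), with the median of each list as a bar and the median of all tested genes as a dashed line at 0.15. The medians of the elongation partners (0.079) and electron donors (-0.060) sit close to 0, with points of these 2 lists from -0.23 for *Cyb5a* to 0.38 for *Hacd1*. The clock genes spread from -3.08 for *Dbp* to 2.25 for *Bmal1*.

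Among 12 regulators of these enzymes 7 were higher and 5 lower in KO (median 0.035), and *Srebf1* was the only one with an unadjusted p under 0.05. *Srebf1*, the gene of SREBP-1c, was at 58.1 TPM in WT 2, 64.3 in WT 3, 27.3 in KO 1 and 20.7 in KO 3. The KO libraries were thus the lower pair at this gene, the reverse of *Elovl2*, *Elovl3* and *Elovl5*, with a difference of -1.32 (SE 0.20, unadjusted p = 0.000808, limma adjusted p = 0.242). *Mlxipl*, the ChREBP gene, was at 13.4 and 14.9 TPM in WT 2 and WT 3, against 37.1 in KO 1 and 12.0 in KO 3, with KO 1 alone apart (log2 difference 0.55, adjusted p = 0.686). *Nr1h3*, the gene of LXRα, was at 39.2 and 46.4 TPM in WT, against 40.3 and 38.8 in KO (-0.11, adjusted p = 0.834). *Insig2*, an inhibitor of SREBP processing named here after its values were seen, was low in WT 3 as *Elovl3* was, at 112 and 50.2 TPM in WT, against 109 and 151 in KO.

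Of 7 tested genes of the peroxisomal steps, which shorten the *Elovl2* product to docosahexaenoic acid, 5 were higher and 2 lower (median 0.22). The thiolase gene *Acaa1a* was at 75.6 TPM in WT 2, 82.5 in WT 3, 53.3 in KO 1 and 61.5 in KO 3, with each KO library lower than each WT library and a difference of -0.46 (unadjusted p = 0.0397, limma adjusted p = 0.468).

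Several clock genes were separated between the genotypes, as *Elovl3* was. Of the 12 tested, 9 had an unadjusted p under 0.05 in limma. *Bmal1* (2.25), *Clock* (1.26) and *Nfil3* (1.69) were higher in KO on the log2 scale, and *Dbp* (-3.08), *Ciart* (-2.42), *Tef* (-1.06), *Per1* (-0.86), *Cry2* (-0.84) and *Hlf* (-0.62) were lower. Only *Dbp*, an output gene of the clock, passed the adjusted threshold (WT 56.8 and 41.3 TPM, KO 4.73 and 4.97 TPM, limma adjusted p = 0.0193). The 2 WT libraries, 2.90 apart on the log2 scale at *Elovl3*, were alike at some clock genes and not at others. The distance was 0.0019 at *Bmal1*, where WT levels of 0.241 and 0.243 TPM leave little room for a difference on this scale. It was 0.019 at *Ciart* (5.70 and 5.61 TPM in WT), 0.91 at *Nfil3* (WT 3 higher) and 1.68 at *Nr1d1*. *Nr1d1*, named after its values were seen, was low in WT 3 as *Elovl3* was (33.9 and 9.92 TPM in WT, 25.1 and 26.9 in KO). The time of collection is not given, and the part of the clock in the *Elovl3* difference was not tested.

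The Y-linked genes *Ddx3y*, *Eif2s3y*, *Kdm5d* and *Uty* were above 0 in all 4 libraries. Of 13 sex-linked and sex-biased genes listed 12 were found, and 1 of these was at 0 in all libraries. Under the filter lay *A1bg*, at 0 except for 0.500 TPM in KO 1, and *Cyp3a41a*, at 0 except for 0.134 TPM in KO 3. These 2 are named after their values were seen. Of the 9 tested sex-linked and sex-biased genes, *Elovl3* included, 7 were higher and 2 lower in KO (median 0.51), and besides *Elovl3* the male-biased *Cyp4a12a* had an unadjusted p under 0.05, with 102 and 96.6 TPM in WT, against 186 and 147 in KO (log2 difference 0.73, limma adjusted p = 0.464). At *Cyp4a12a* the WT libraries were close to each other. *Hsd3b5*, another male-biased gene, was lowest in WT 3 as *Elovl3* was, with 149 and 82.3 TPM in WT and 151 and 121 in KO. Others of the list were not: *Mup20* was lowest in WT 2 (10129 and 21688 TPM in WT, 19129 and 23268 in KO). *Cyp2d9* was lowest in KO 1 (1251 and 951 TPM in WT, 831 and 1274 in KO). *Hsd3b5*, *Mup20* and *Cyp2d9* were named after their values were seen.

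In bulk tissue fewer cells of a type and less RNA per cell cannot be told apart, and several of the 9 genes are also expressed in adipose tissue. Of 8 adipocyte markers *Plin1*, *Lep*, *Retn* and *Cidea* were at 0 in all libraries, and the list summed to 8.29 and 12.9 TPM in WT, against 17.9 and 12.3 in KO. Most of that sum was *Fabp4* (4.61, 9.47, 15.4 and 9.91 TPM in WT 2, WT 3, KO 1 and KO 3), while *Adipoq* was at or under 0.224 TPM. The 2 adipocyte markers tested went in opposite directions. *Fabp4* was higher in each KO library than in each WT library (log2 difference 0.80). *Lipe*, named after its values were seen, was lower in each (3.25, 3.11, 2.55 and 1.59 TPM in the same order, log2 difference -0.46). Of the hepatocyte markers 6 were higher and 4 lower in KO by mean (median 0.14), and of the 8 Kupffer cell markers 2 and 6 (median -0.18). All 5 tested stellate cell markers had a higher mean of log2(TPM + 1) in KO (median 0.52). For *Des* this was by 0.0014 only, and its mean in TPM was lower in KO (1.22, against 1.25 in WT). The stellate list summed to 54.6 and 45.5 TPM in WT, against 84.1 and 63.4 in KO, and most of this was *Dcn* (42.6 and 34.1 TPM in WT, 62.8 and 48.4 in KO). Kupffer cell markers were low in KO 1 (77.5 TPM, compared with 142, 161 and 202 TPM in WT 2, WT 3 and KO 3). The 6 sinusoidal endothelial markers were all higher by mean (median 0.20), as were both tested cholangiocyte markers (0.74). The 1 tested acinar marker differed by -0.27 with the other 3 at 0, the 3 erythroid markers had a median of -0.22, and no T, B or NK cell marker reached the filter. An unadjusted p under 0.05 was found for *Apob* (0.52), *Hnf4a* (0.59) and *Tat* (0.79) of the hepatocyte list, for *Lyve1* (0.98) and *Spp1* (0.97), all higher in KO, and for *Hba-a1* (-0.46). The part of cell composition in the differences of the desaturases and elongases was not tested.

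The 5 tested genes whose values ranged over at least 1 on the log2 scale were set beside all 5822 genes that averaged 5 TPM or more, and the 3 with the nearest profile over the 4 libraries (Euclidean distance of centred log2(TPM + 1)) were listed for each. Nearest to *Elovl2* were *Nsd3* (distance 0.10), *Cldn1* (0.11) and *Wnk1* (0.12), and nearest to *Elovl5* were *Golgb1* (0.15), *Ppfia1* (0.19) and *Camk1d* (0.28). *Scd1* was nearest to *Pin4* (0.15), *Arglu1* (0.18) and *Rbbp6* (0.18), which were all lowest in WT 2, and *Elovl6* to *Rcan1* (0.26), *Snrk* (0.27) and *Golt1a* (0.27), all highest in WT 3. *Elovl3* had no close neighbour: *Marcksl1-ps4* (1.14), *Nutf2-ps1* (1.32) and *Galnt2* (1.45) came first, and all 3 were listed at 0 in WT 3. None of these lists held another of the 9 genes.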

How the data were processed

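Liver RNA-seq libraries, 2 from WT mice and 2 from *Usp21* KO mice, were grouped by their labels (Illumina MiSeq, RNA by ISOGEN II). The authors estimated TPM with salmon (mm10) and deposited these per gene for 35739 genes, together with a log2(TPM + 1) table. The authors also deposited TMM-normalized CPM from HTSeq counts, a count-based signal here, in which 100% of values were whole reads within 0.02 reads, and its log form, which was not used. Salmon, HTSeq, edgeR, Partek and deepTools are named in the submitters' processing notes; their versions, the annotation and the strand setting are not given in the sources used here.

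Genes averaging 1 TPM or more over the 4 libraries (9581) were tested on log2(TPM + pseudocount 1) with limma 3.58.1 (lmFit, eBayes with a trend, R 4.3.3), two-sided, with Benjamini-Hochberg adjustment; prior degrees of freedom were 3.62, so the p-values borrow from the variance of other genes. A fold change on this scale understates that of low genes. Ratios within a library were compared by exact permutation. Alternatives were pseudocounts of 0.1 and 5, no filter, a filter at a mean of 5 TPM, 2 scalings, no moderation, the CPM values, edgeR 4.0.16 and DESeq2 1.42.0 on recovered reads, and each library left out. Scripts were tested on simulated data.

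The genes, the lists of surrounding genes (written from general knowledge, 149 of 150 found in the TPM table, 1 by Ensembl identifier) and the tests were chosen with earlier results of these data known. Named are the 9 genes, *Usp21*, *Srebf1*, *Mlxipl*, *Nr1h3*, list genes with an unadjusted p under 0.05, and the 3 nearest profiles of each gene ranging over at least 1 on the log2 scale; others are marked in the text, and 1 list gene that met the rule is not reported here.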

Additional observations from a re-analysis of the deposited data

How the results depend on the processing

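None of the tested genes among the 9 passed the adjusted threshold under any of the 14 alternatives, and *Elovl2*, *Elovl3*, *Elovl5* and, on TPM, *Scd1* stayed higher in KO in all those that gave a value. With 1 library left out the log2 difference ranged from 1.38 to 4.29 for *Elovl3*, 0.64 to 1.33 for *Elovl2*, 0.29 to 1.51 for *Elovl5* 0.19 to 1.34 for *Scd1*, -0.19 to 0.36 for *Elovl1*, -1.05 to 0.37 for *Elovl6*, -0.33 to 0.61 for *Fads1* and -0.32 to 0.23 for *Fads2*. The direction turned for *Elovl1* with upper quartile scaling (-0.010) and without KO 1 (-0.19), for *Elovl6* without WT 3 (0.37), for *Fads1* without WT 2 (-0.10) or KO 1 (-0.33), and for *Fads2* without WT 3 (0.18) or KO 3 (0.23). On the CPM table *Fads1* and *Scd1*, at 3 reads or fewer, turned to -1.50 and -0.20 in CPM, -0.14 and -0.10 in edgeR and -0.34 and -0.29 in DESeq2, so that 0 of the 2 genes were higher and 0 separated. Leaving out 1 library, 4 to 8 of the 8 genes were higher (58.9% to 70.6% of all tested genes) and 4 to 7 separated in either direction (70.2% to 76.9% of all tested genes), since fewer libraries separate more easily. Ratio differences ranged from -0.12 to 1.55 (*Scd1* to *Scd2*), -0.38 to 0.014 (*Fads2* to *Fads1*), -0.35 to 0.18 (*Elovl5* to *Elovl2*) and -1.73 to -0.53 (*Elovl6* to *Scd1*). Of all genes, 8 passed the adjusted threshold in limma, 4 without a filter, 12 in edgeR, 1 in CPM, 1 in DESeq2, 0 without moderation (806 at an unadjusted p under 0.05) and 0 to 0 with a library left out (542 to 1188 unadjusted). The number of genes higher in KO moved from 5 to 3 without WT 3 for the elongation partners, from 1 to 3 without WT 3 for the electron donors, from 0 to 3 without WT 2 or KO 1 for the acyltransferases, from 2 to 5 without WT 3 or KO 3 for fatty acid synthesis, and from 5 to 3 without KO 3 for the peroxisomal genes. Upper quartile scaling lowered the share of genes higher in KO from 66.7% to 57.5%, and from 80.6% to 63.9% among those with an unadjusted p under 0.05. No paired analysis was possible because the 2 genotypes share only 1 replicate number.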
